A study of Ictidomys tridecemlineatus with 15 samples.

Results

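The genes described here encode RNA polymerase II subunits, general initiation factors, Mediator and the factors that pause or drive the elongating polymerase. They were taken by name alone: a count unit was a member if its gene symbol began with Polr2, Med, Taf, Supt, Nelf, Ccnt, Gtf2 or Tcea in the pattern of these families, or was Cdk7, Cdk9, Cdk12, Cdk13, Ell, Ell2, Paf1, Ctr9, Leo1, Cdc73, Hexim1 or Larp7. Of the 4705 units that carry a single gene name, 36 were members. A further 28 of the 1619 units in which overlapping genes had been merged hold a member's name beside other genes, and they are described apart, since their reads cannot be assigned to 1 gene.

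Nascent transcription was measured by global run-on sequencing (GRO-seq) in livers of female 13-lined ground squirrels, a hibernator whose winter consists of torpor bouts at very low body temperature broken by brief rewarming. The 5 states were summer active (SA, warm, before hibernation), interbout aroused (IBA, rewarmed between bouts), entrance (Ent, cooling into a bout), early torpor (ET) and late torpor (LT), the last pair cold. There were 3 libraries in each state but LT, which had 2 (replicates 1 and 3), since LT replicate 2 was not analysed here, and each library came from a different animal of a breeding colony. Nuclei of frozen liver were incubated with a BrdU label for 7 min at 30 °C whatever the state, so the reads mark polymerases engaged when the tissue was frozen, extended at 1 assay temperature. All ET animals were collected in a hibernation season of their own, while the LT and the IBA animals came from other seasons that SA and Ent animals shared, so state and season cannot be told apart in any comparison with ET.

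RNA polymerase II starts transcription when TFIID, whose TAF subunits contact promoters, and the other general factors assemble with it, while Mediator, a modular complex with a detachable kinase module, relays signals from transcription factors. Soon after initiation the enzyme is held by NELF and is released when P-TEFb, a kinase made of Cdk9 and a T-type cyclin, phosphorylates the paused complex. SPT6, the PAF complex, ELL proteins and TFIIS then assist it through the gene body. In liver these proteins serve the genes that hepatocytes transcribe with RNA polymerase II, and their own genes are counted among the general machinery of the cell.

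Library totals ranged from 3713883 to 8884763 counts, and all 36 genes had at least 47 counts in every library, so none was lost to a filter on low values. Levels are given in CPM, a unit's counts after every library was brought to 1 common size with TMM factors. This is a relative measure, and a gene's CPM can change because other genes change. The tissue label was checked on hepatocyte markers. Of 10 markers, 6 had a unit of their own (Apob, Ttr, Tf, Fgb, Cps1 and Hnf4a), and their summed level was 9130 to 20159 CPM in SA, 8725 to 13360 in IBA, 7122 to 8184 in Ent, 3688 to 5939 in ET and 4692 to 6987 in LT. Endothelial markers (3 of 6 with a unit) summed to 124 to 241 CPM and the cholangiocyte gene Sox9 to 7.07 to 46.1, while markers of Kupffer, stellate and blood cells had no single-gene unit. The hepatocyte sum is thus lower in every ET and LT library than in any SA or IBA library. The endothelial sum and Sox9 were also lower in both LT libraries than in any SA or IBA library. The part of these marker levels in the results that follow was not tested. Fewer cells of a type and less nascent RNA per cell cannot be told apart in whole liver.

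As a group, the 36 genes took 0.404 to 0.44% of all counts in the SA, IBA and Ent libraries and 0.482 to 0.501% in the ET and LT libraries, without overlap. On the TMM scale, their summed level averaged 4369 CPM over the 6 SA and IBA libraries and 4703 over the 5 ET and LT libraries. This difference of 334 CPM is the net of rises and falls. The largest rise was 157 CPM for Ccnt2, and the largest fall was -92.4 CPM for Ell2. The lowest cold library (4530 CPM) stood just above the highest warm one (4503 CPM). Per kilobase of unit, which allows genes to be compared, mean levels over all libraries ran from 6.74 CPM per kb for Ccnt2, through 5.26 for Med13, 4.96 for Taf7 and 4.89 for Ell2, down to 0.840 for Taf2 and 0.810 for Gtf2e1. Polr2a came eighth at 3.61 CPM per kb.

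In edgeR's quasi-likelihood test of the 5 states, with Benjamini-Hochberg adjustment over all units and a threshold of 0.001, 5 of the 36 genes passed (Med7, Med4, Ctr9, Nelfe and Gtf2h3), or 13.9%, against 26.4% of all single-gene units. At an adjusted p of 0.05 there were 21 (63.3% of all units). Nelfa (adjusted p = 0.00102), Ccnt2 (0.0013) and Taf7 (0.0013) lay just outside. Leaving out 1 library at a time kept Med7, Med4 and Ctr9 past the threshold each time, and the count fell to 3 without SA replicate 1, any IBA library, Ent replicate 2, ET replicate 1 or 2, or either LT library, as Gtf2h3 and Nelfe were lost, while 17.8 to 22.4% of all units passed in those fits. With a term for the season of the IBA animals, 0 of the 36 passed by the same edgeR test (7.33% of all units), with 15 at an unadjusted p of 0.05 (56.7% of all units), and the smallest adjusted p was 0.0014, for Med7. The season of the ET animals cannot be separated in that fit. DESeq2, with no season term, called 17 of the 36, against 51.4% of all single-gene units.

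The main contrast set the cold states against the warm ones, as the mean of ET and LT minus the mean of SA and IBA. Unless another tool is named, calls from here on are those of edgeR at 0.001. Here 11 of the 36 genes passed, or 30.6%, against 37.0% of all single-gene units. Of these, 9 were higher in the cold (18.3% of all units were called higher) and 2 were lower (18.7% of all units). At an adjusted p of 0.05, 14 were higher (30.1% of all units) and 6 lower (35.0% of all units), and DESeq2 called 19 at 0.001 (48.9% of all units). The median log2 fold change of the 36 genes was 0.15, and that of all single-gene units was -0.07. Groups did not overlap for 17 genes: the cold libraries were all above the warm ones for 11 (20.3% of all units) and all below for 6 (20.2% of all units). The direction of the whole table depends on the scaling. With uniquely mapped reads as library size, the median of all units moved from -0.07 to 0.16, the split of all calls from 859 higher and 881 lower to 1203 and 603, and that of the members to 14 higher and 1 lower. Leaving out LT replicate 1 lowered the count of members called to 7 (25.9% of all units), and Med7, Med4, Ctr9, Gtf2h3, Nelfa and Ccnt2 (higher) and Nelfe (lower) were past the threshold in every alternative run for this contrast.

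**Figure D1:**
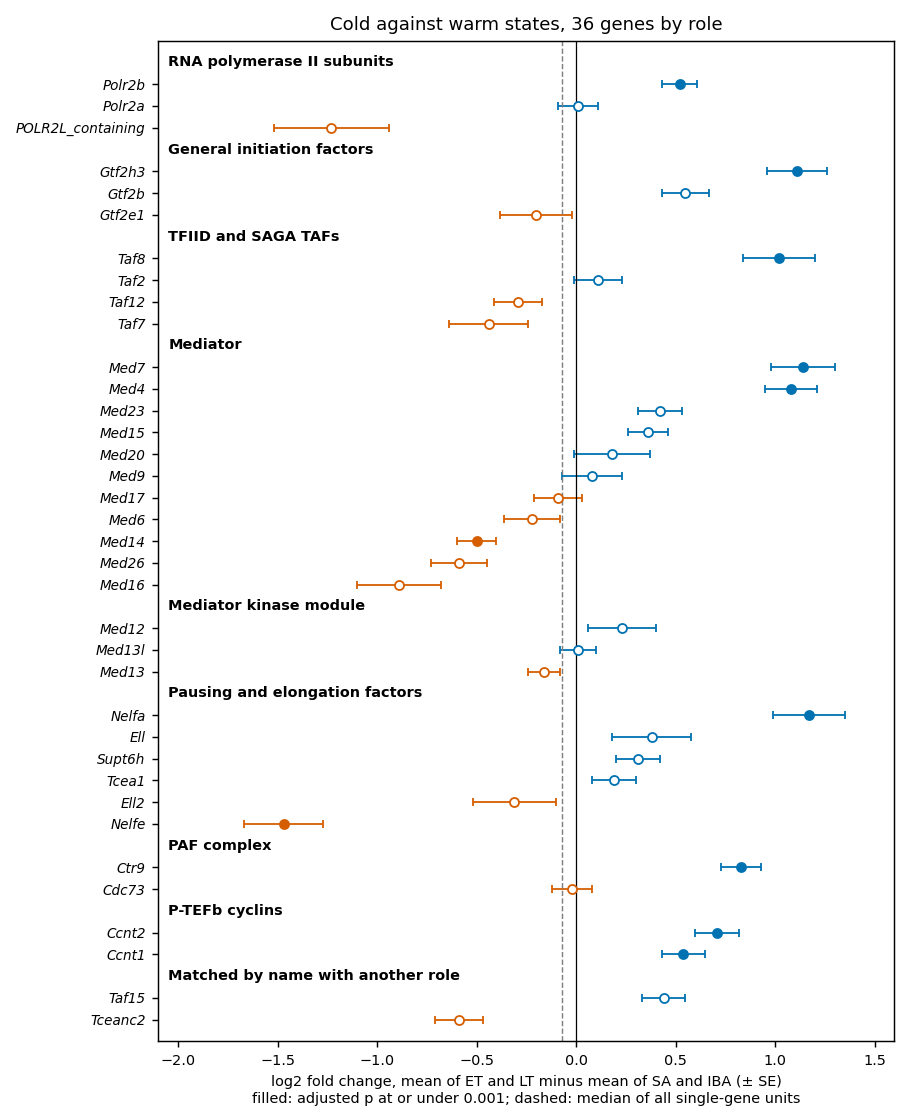
Log2 fold change between the cold states (mean of ET and LT) and the warm states (mean of SA and IBA) for each of the 36 genes, ordered within roles, with the standard error of the edgeR fit as bars. Filled points passed an adjusted p of 0.001, 9 of them to the right of 0 and 2 to the left, and within most roles the points lie on both sides of 0. The dashed line marks the median of all single-gene units, -0.07.

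Among the polymerase subunits, Polr2a, which encodes the largest subunit and carries the C-terminal repeat domain, stood at 106, 105 and 97.3 CPM in SA, 90.1, 98.2 and 98.5 in IBA, 79.9, 71.5 and 61.1 in Ent, 80.7, 81.3 and 89.1 in ET, and 136 and 101 in LT. The Ent libraries were the lowest of all, and LT replicate 1 stood apart above every other library. Its log2 fold change in the cold was 0.01 ± 0.10 (SE), with an adjusted p of 0.96 in edgeR's quasi-likelihood test, and it did not pass the 5-state test (adjusted p = 0.0073). Without LT replicate 1 the value was -0.11 and without LT replicate 3 it was 0.10, neither near the threshold.

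Polr2b, whose product forms the catalytic centre together with that of Polr2a, was at 78.3, 66.3 and 75.1 CPM in SA, 74.7, 73.8 and 76.6 in IBA, 91.3, 102 and 97.4 in Ent, 92.9, 121 and 101 in ET, and 111 and 105 in LT. Every Ent, ET and LT library was above every SA and IBA library. Polr2b rose by 0.52 ± 0.09 (SE) on the log2 scale in the cold, which is 1.43-fold (adjusted p = 0.00032, edgeR), while the call was lost without any IBA library or either LT library. The unit named POLR2L_containing, which holds the gene of a small subunit shared by the nuclear polymerases, went from 29.9 to 59.4 CPM in SA and IBA to 12.5 to 22.5 CPM in ET and LT, a log2 fold change of -1.23 ± 0.29 that missed the threshold (adjusted p = 0.0023, edgeR). All of that unit lies within a merged unit on the other strand (Rplp2 to Cd151), which was at 153 CPM in IBA and 375 CPM in ET on average. The reads keep the strand, but whether the counting used it is not given in the sources used here. The level of POLR2L_containing was lower and that of the overlapping unit higher in the cold (1.12 ± 0.15, adjusted p = 3.9e-05, edgeR).

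Of the 3 general initiation factors, 1 passed the cold-to-warm contrast (33.3%, against 37.0% of all single-gene units). Gtf2h3, a core subunit of the helicase-bearing factor TFIIH, stood at 13.7, 17.9 and 9.98 CPM in SA, 13.4, 15.7 and 15.2 in IBA, 15.8, 17.8 and 16.8 in Ent, 29.9, 31.8 and 23.9 in ET, and 32.8 and 33.0 in LT. All 5 cold libraries exceeded all 9 others, with no overlap of Ent and ET. The cold-to-warm difference was 1.11 ± 0.15 (SE) on the log2 scale, or 2.15-fold (adjusted p = 4.5e-05, edgeR), and the pair of ET and Ent alone gave 0.76 (adjusted p = 0.015, short of the threshold). Gtf2b, which encodes TFIIB, the bridge between TBP and the polymerase, ranged from 52.0 to 69.9 CPM in the warm and from 77.0 to 107 CPM in the cold libraries, with Ent between 71.4 and 96.2, and narrowly missed the threshold (log2 fold change 0.55 ± 0.12, adjusted p = 0.0016). Gtf2e1, the large subunit of TFIIE, had the lowest level per kilobase of all members and ranged from 15.5 to 33.6 CPM with overlapping groups (adjusted p = 0.35).

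The 4 TAF genes took different courses. Taf8, a TFIID subunit, stood at 44.6, 42.1 and 92.8 CPM in SA, 40.9, 39.5 and 40.9 in IBA, 59.0, 68.5 and 69.1 in Ent, 106, 95.5 and 94.2 in ET, and 101 and 103 in LT. It was higher in each ET and LT library than in any other, but SA replicate 3 reached 92.8 where the other SA and IBA libraries lay between 39.5 and 44.6. Taf8 rose by 1.02 ± 0.18 (SE) on the log2 scale in the cold (2.03-fold, adjusted p = 0.00027, edgeR). Without SA replicate 3 the value was 1.26 ± 0.09 (adjusted p = 1.4e-06), and without either LT library the call was lost.

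Taf7, another TFIID subunit, followed a different course, with 43.9, 27.2 and 35.6 CPM in SA, 37.5, 52.5 and 53.5 in IBA, 51.9, 74.5 and 91.6 in Ent, 50.2, 64.6 and 41.5 in ET, and 14.1 and 21.5 in LT. The Ent libraries reached the highest values and both LT libraries lay below every other library. It missed the threshold in the 5-state test (adjusted p = 0.0013), in LT against IBA (log2 fold change -1.43 ± 0.31, adjusted p = 0.0025) and in the cold-to-warm contrast, where ET and LT pulled in opposite directions (-0.44 ± 0.20, adjusted p = 0.071). Taf2 (51.1 to 84.3 CPM over all libraries) and Taf12, which is also a subunit of the SAGA coactivator (20.6 to 35.8 CPM), were not called by edgeR in any comparison.

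SA replicate 3 stood apart in a stretch of chromosome 8 that holds both Taf8 and Med20. In this library Med20 was at 207 CPM and at 90.4 and 96.0 in the other SA libraries. Ordered along the HiC_Itri_2 genome, 9 successive units from Tfeb to Ubr2 (chromosome 8, 45722977 to 46784276, a span of 1.06 Mb) had 1.65 to 2.61 times the mean CPM of the other SA libraries, with a median of 2.22. The other 29 units within 3 Mb of the start of Taf8 had a median ratio of 0.961. In the 11 libraries of the other states, the median ratio of the same 9 units to the other libraries of the state lay between 0.932 and 1.12. This stretch was noticed in the data and chosen after its values were seen. Runs of 6 or more successive units at 1.5-fold or more were not unique to it, since 7 such upward runs were found over the 14 libraries, but its median ratio was the highest of these. Leaving SA replicate 3 out moved Med20, a Mediator head subunit, from 0.18 ± 0.19 to 0.43 ± 0.11 on the log2 scale in the cold (adjusted p from 0.42 to 0.0046, edgeR).

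**Figure D2:**
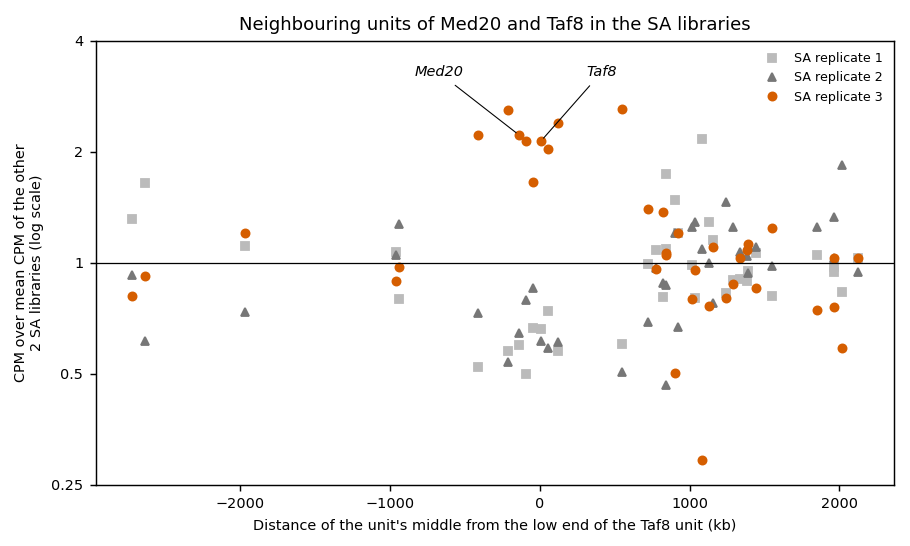
Each unit's CPM divided by the mean CPM of the other 2 SA libraries (log scale), against the distance of the unit's middle from the Taf8 unit, for the 3 SA libraries. The 9 units of SA replicate 3 in the stretch around Med20 and Taf8 lie between 1.65 and 2.61, while units further out scatter around 1.

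Mediator had 11 members, of which 2 were called higher in the cold (18.3% of all single-gene units) and 1 lower (18.7% of all units). Whether called or not, 6 had a positive and 5 a negative change, with a median log2 fold change of 0.08. Med7 and Med4, whose products are neighbours in the middle module, were the members with the smallest p in the 5-state test. Med7 stood at 22.2, 19.0 and 16.3 CPM in SA, 19.3, 15.7 and 21.1 in IBA, 32.9, 38.1 and 43.3 in Ent, 76.9, 75.0 and 47.1 in ET, and 23.6 and 28.4 in LT. It was thus above the warm range already in Ent, peaked in ET and was lower again in LT, still just above every warm library. The contrast of cold and warm gave 1.14 ± 0.16 (SE) on the log2 scale, or 2.20-fold (adjusted p = 5.7e-05, edgeR), and the 5-state test an adjusted p of 5.5e-05.

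Med4 stood at 34.2, 27.0 and 26.6 CPM in SA, 39.5, 35.1 and 35.4 in IBA, 35.5, 47.3 and 51.9 in Ent, 73.9, 88.4 and 71.0 in ET, and 66.5 and 57.6 in LT. All ET and LT libraries exceeded all others, and the ET libraries exceeded those of LT. Med4 rose by 1.08 ± 0.13 (SE), or 2.12-fold (adjusted p = 1.1e-05, edgeR). Med14, the backbone that joins the Mediator modules, went the other way, from 118, 128 and 142 CPM in SA and 119, 109 and 114 in IBA to 92.8, 89.5 and 98.0 in Ent, 65.1, 87.8 and 88.3 in ET, and 91.9 and 92.6 in LT. Each Ent, ET and LT library was below each SA and IBA library. Med14 fell by 0.50 on the log2 scale (SE 0.10, adjusted p = 0.00082, edgeR), a call that was lost under other scalings and when any 1 of 12 libraries was left out.

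The other 8 Mediator genes were not called in any comparison of the main edgeR fit, while DESeq2 called Med15, Med16, Med23 and Med26 in the cold-to-warm contrast. In alternative edgeR runs for this contrast, Med15 and Med23 passed with uniquely mapped reads as library size. Med15 also passed without SA replicate 2, and Med26 without ET replicate 1. Med16 of the tail module was at 83.0 to 161 CPM in the warm and 34.4 to 78.5 in the cold libraries (log2 fold change -0.89 ± 0.21, adjusted p = 0.0023). Its unit shares 20.5% of its length with Cfd on the other strand, which was itself at 64.6 CPM in SA and 9.76 in LT on average. Med26, the subunit that links Mediator to elongation factors, was at 116 to 163 CPM in the warm and 75.8 to 115 in the cold (-0.59 ± 0.14, adjusted p = 0.0022). Among the tail subunits Med15 and Med23, the values were 0.36 ± 0.10 (adjusted p = 0.0078) and 0.42 ± 0.11 (0.0057). Med6, Med9 and Med17 overlapped between cold and warm, at -0.22, 0.08 and -0.09, and the signs of Med6 and Med17 turned with uniquely mapped reads as library size.

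Neither edgeR nor DESeq2 called any of the 3 kinase module genes at 0.001. Med13, the module's link to the Mediator core, stood at 458, 473 and 478 CPM in SA, 615, 547 and 588 in IBA, 458, 469 and 501 in Ent, 497, 527 and 455 in ET, and 479 and 416 in LT. The IBA libraries were higher than all others, and the 5-state test gave an adjusted p of 0.071 in edgeR. Its paralogue Med13l, the longest unit at 311.71 kb, was one of the steadiest members, with 609 to 751 CPM over all libraries and a log2 fold change in the cold of 0.01 ± 0.09. Med12 ranged from 19.4 to 47.6 CPM, both values in warm libraries.

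**Figure D3:**
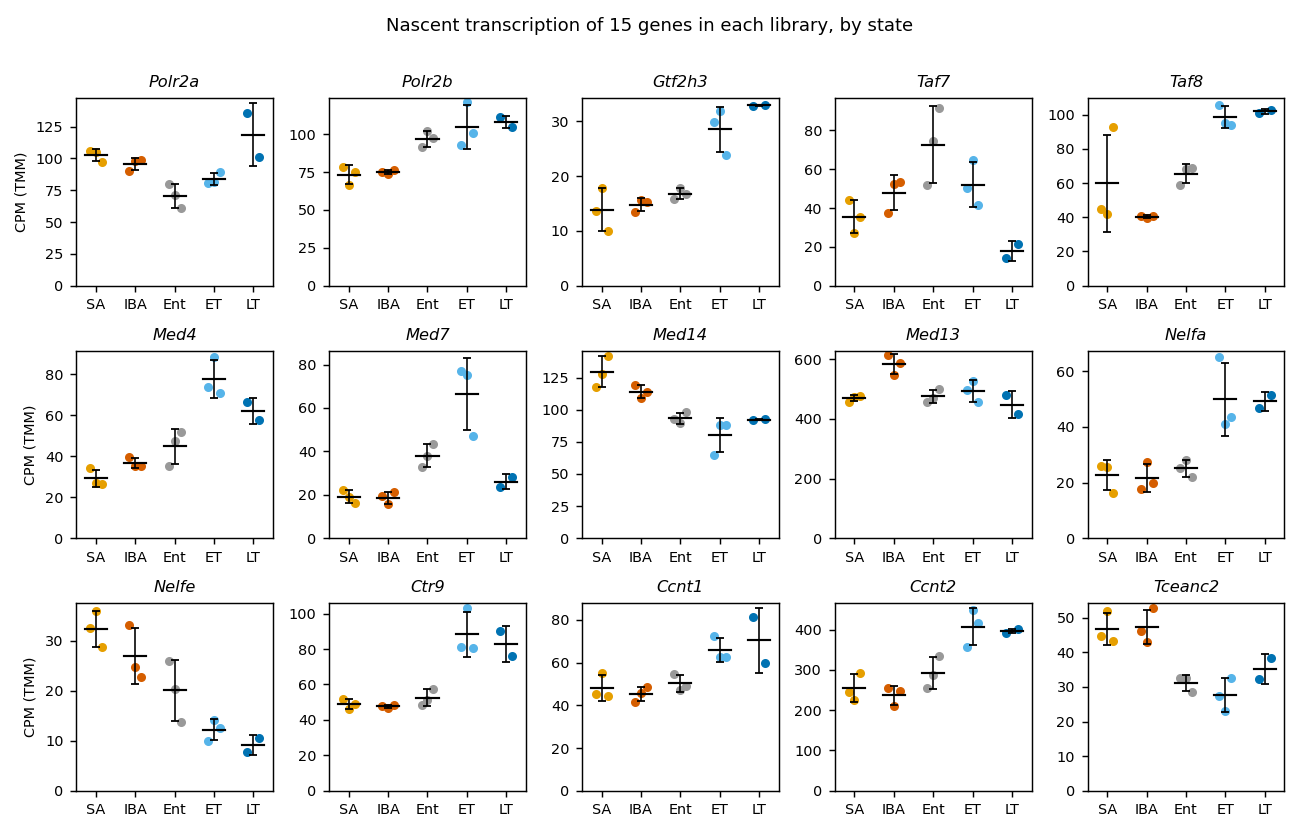
CPM of 15 genes in each library (points, coloured by state), with the mean (horizontal bar) and SD (vertical bar) of each state, every axis starting at 0. Polr2b, Gtf2h3, Taf8, Med4, Med7, Nelfa, Ctr9, Ccnt1 and Ccnt2 have every cold library above every warm one. Nelfe, Med14 and Tceanc2 have every cold library below, and Taf7 and Med7 are lower in LT than in ET.

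Among the pausing and elongation factors, both NELF subunits with a unit of their own changed in the cold, in opposite directions. Nelfa was at 25.8, 25.6 and 16.4 CPM in SA, 17.6, 27.2 and 20 in IBA, 25.3, 28.1 and 21.9 in Ent, 64.9, 41.0 and 43.6 in ET, and 46.6 and 51.6 in LT. Every cold library was above every other, with no overlap of Ent and ET. Nelfa rose by 1.17 ± 0.18 (SE), or 2.25-fold (adjusted p = 9.6e-05, edgeR).

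Nelfe was at 32.5, 36 and 28.8 CPM in SA, 33.2, 24.7 and 22.7 in IBA, 26.0, 20.4 and 13.8 in Ent, 10.0, 14.1 and 12.6 in ET, and 7.71 and 10.6 in LT. The cold libraries lay below all SA and IBA libraries, and ET replicate 2 just above the lowest Ent library. Nelfe fell by 1.47 on the log2 scale (SE 0.20, adjusted p = 3.4e-05, edgeR), leaving 0.360 times the warm level. Here too a unit on the other strand overlaps: C2:Cfb, complement genes of liver, covers 76.2% of Nelfe and was at 193 CPM in SA, 167 in IBA, 171 in Ent, 115 in ET and 123 in LT on average (log2 fold change -0.59 ± 0.23, adjusted p = 0.04, edgeR). Nelfa has no overlapping unit.

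The remaining elongation factors were not called by edgeR in any comparison, and Supt6h was called in the cold-to-warm contrast with uniquely mapped reads as library size. Ell2, part of the super elongation complex, spread widely within SA and IBA, with 637, 594 and 406 CPM in SA, 490, 235 and 287 in IBA, and 249 to 444 in the other 8 libraries. Its paralogue Ell ranged from 172 to 483 CPM, both extremes from the Ent and ET states. Supt6h, the histone chaperone SPT6, was at 58.7 to 77.3 CPM in the warm and 73.3 to 93.9 in the cold (log2 fold change 0.31 ± 0.11, adjusted p = 0.022), and Tcea1, which encodes TFIIS, at 75.6 to 102 and 81.0 to 120 (0.19 ± 0.11, adjusted p = 0.16).

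The PAF complex contributed Ctr9, its scaffold, and Cdc73, and only the former passed. Ctr9 stood at 51.6, 45.9 and 49.0 CPM in SA, 48.0, 46.8 and 48.2 in IBA, 48.4, 51.4 and 58 in Ent, 81.4, 103 and 80.4 in ET, and 90.2 and 75.9 in LT. The 9 warm and entrance libraries lay between 45.9 and 58 CPM and the cold ones between 75.9 and 103. Ctr9 rose by 0.83 ± 0.10 (SE), or 1.77-fold (adjusted p = 1.6e-05, edgeR). Cdc73 ranged from 221 to 297 CPM with a log2 fold change of -0.02 ± 0.10, whose sign turned with the scaling.

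Both cyclins of P-TEFb were higher in the cold. Ccnt2 was at 246, 226 and 293 CPM in SA, 254, 210 and 248 in IBA, 256, 288 and 334 in Ent, 358, 448 and 417 in ET, and 393 and 401 in LT. Each cold library exceeded each of the others, and Ccnt2 rose by 0.71 ± 0.11 (SE), or 1.63-fold (adjusted p = 8.9e-05, edgeR). Ccnt1 was at 45.3, 55 and 44.2 CPM in SA, 41.8, 45.8 and 48.5 in IBA, 54.8, 47.2 and 49.1 in Ent, 72.4, 62.7 and 62.6 in ET, and 81.2 and 59.8 in LT. It rose by 0.54 ± 0.11, or 1.46-fold, but the adjusted p of 0.00098 (edgeR) sat at the threshold and the call was lost when any 1 of 12 libraries was left out. Per kilobase Ccnt2 ran at 8.79 CPM in ET and Ccnt1 at 3.24.

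Taf15 and Tceanc2 share a name pattern with the list but have other roles, the former encoding an RNA-binding protein. Tceanc2, whose protein carries a TFIIS-like domain, was at 42.9 to 52.7 CPM in SA and IBA and at 23.0 to 38.3 in Ent, ET and LT. The log2 fold change in the cold was -0.59 ± 0.12 (adjusted p = 0.0011, edgeR), just short of the threshold. Taf15 stood at 73 to 102 CPM in the warm and 95.1 to 126 in the cold (0.44 ± 0.11, adjusted p = 0.0041).

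The sequential pairs compared single states with each other. In LT against IBA, 1 of the 36 genes passed (Ctr9, 0.80 ± 0.15, adjusted p = 0.00086, edgeR), against 17.6% of all single-gene units, and at an adjusted p of 0.05 there were 16, or 50.7% of all units, of which 11 were higher (24.1% of all units) and 5 lower in LT (26.6% of all units). The direction of Ctr9 held in each alternative, but the call did not, since it was lost with season as a covariate (0.85, adjusted p = 0.0097) and without any of 11 single libraries, among them LT replicate 1 (0.67, adjusted p = 0.016), which leaves 1 LT library. In the same comparison DESeq2 called 9 of the 36 (32.2% of all units).

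Between adjacent states the members' calls were few. In ET against Ent, edgeR called 0 of the 36 (2.30% of all units), with 10 at an unadjusted p of 0.05 (41.1% of all units), while DESeq2 called 3 (15.4% of all units) and limma-voom 0. The largest values there were 0.99 ± 0.24 for Nelfa (adjusted p = 0.0089), 0.80 ± 0.21 for Med7 (0.014) and 0.79 ± 0.17 for Med4 (0.0048), and 6 genes, all higher in ET, were under an adjusted p of 0.05, where 15.4% of all units were higher and 29.2% passed in all. In Ent against IBA, edgeR called 0 (0.0425% of all units), with 12 at an unadjusted p of 0.05 (33.4%), DESeq2 called 1 (7.00% of all units) and limma-voom 0, and 3 members were under an adjusted p of 0.05 (16.7% of all units). Med7 had the largest value, 1.02 ± 0.22 (adjusted p = 0.01), and Polr2a stood at -0.43 ± 0.14 (adjusted p = 0.051). In IBA against SA, edgeR called 0 (0.0213% of all units), with 5 at an unadjusted p of 0.05 (23.4%), and DESeq2 (3.72% of all units) and limma-voom called 0 as well.

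Within torpor, from ET to LT, 0 of the 36 genes passed in edgeR (0% of all units), 3 had an unadjusted p under 0.05 (9.27% of all units), DESeq2 called 2 (Med7 and Taf7, 0.702% of all units) and limma-voom 0. Med7 alone was under an adjusted p of 0.05 (0.340% of all units). It had a log2 fold change of -1.35 ± 0.25 (adjusted p = 0.048, edgeR) and Taf7 of -1.55 ± 0.31 (adjusted p = 0.057). Both LT libraries lay below all ET libraries for both genes. Counted from the lowest of the 4705 single-gene units, Taf7 ranked 16 and Med7 ranked 29. Without LT replicate 1 the values were -1.22 and -1.27, with adjusted p of 0.65 and 0.86, and the LT library that remained was assumed to vary like the other groups. Polr2a was the other gene under an unadjusted p of 0.05, at 0.50 ± 0.15 (adjusted p = 0.26), both of its LT libraries being above all ET libraries.

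Taf7 and Med7 are also the shortest units of the list, at 9.5 and 10.56 kb, where the members' median is 33.58 kb and that of all single-gene units 36.22 kb. All 4 members under 15 kb (with POLR2L_containing and Nelfe, at -0.29 and -0.41) had a negative change from ET to LT, whereas the 32 longer ones were split into 16 and 16. Over the whole table, 70.1% of the 846 single-gene units under 15 kb were lower in LT, with a median of -0.21, compared with 48.8% of the 3859 longer ones, with a median of 0.01. The 16 single-gene units under an adjusted p of 0.05 were all lower in LT and had a median length of 6.74 kb. The part of unit length in their change was not tested.

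**Figure D4:**
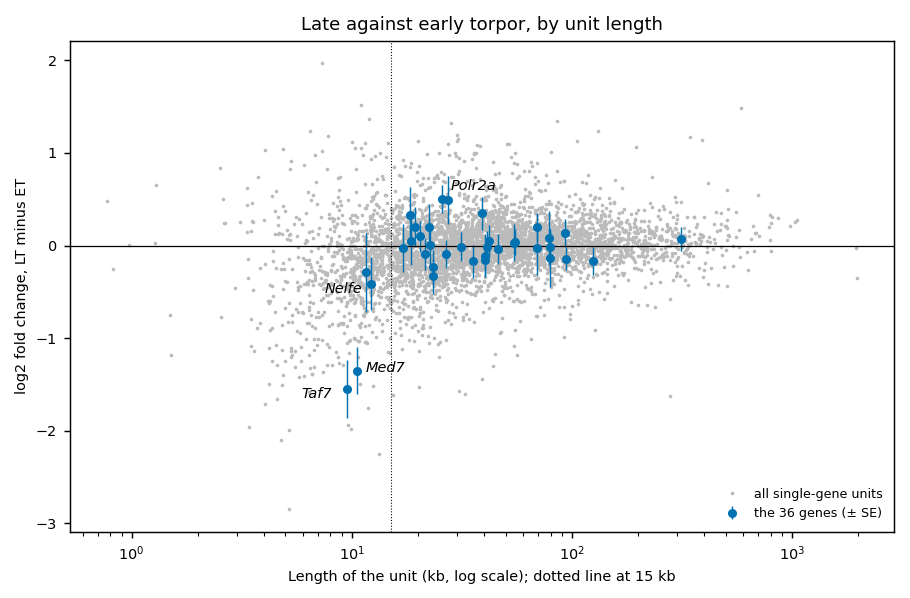
Log2 fold change from ET to LT against unit length in kb (log axis) for all 4705 single-gene units (grey) and the 36 genes (blue, ± SE), with a dotted line at 15 kb. Taf7 and Med7 lie near the lower edge among the short units, and the longer members lie near 0.

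Position gave little else in common. The 36 genes lie on 12 chromosomes, each as 1 uninterrupted segment. For 12 of them (33.3%) the nearest upstream unit ended within 20 kb, on the same strand for 4 (11.1%), compared with 26.5% and 9.35% of all single-gene units. The called genes include neighbours of both kinds: Gtf2h3 (chromosome 2, 158284039 to 158303414, plus strand) begins 2.75 kb after Ddx55 on the same strand, whereas Med7 (chromosome 1, 107539222 to 107549776, plus strand) has no upstream unit for 564.16 kb. Units on the other strand overlapped 6 members (Med16, Med23, Med26, Nelfe, POLR2L_containing and Tceanc2). In the cold-to-warm contrast edgeR called Nelfe of these (37.0% of all single-gene units) and DESeq2 all 6 (48.9% of all units). How many of all units have such an overlap was not counted.

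Several of the best-known regulators appear solely in merged units, so that their own transcription was not resolved. Of the 28 merged units that hold a member's name, 5 passed the 5-state test at 0.001 (22.9% of all merged units) and 10 the cold-to-warm contrast (34.2%), 6 higher and 4 lower. Supt5h:Timm50, which holds the gene of the DSIF subunit SPT5, was at 89.0 to 150 CPM in SA and IBA, 141 to 160 in Ent and 202 to 289 in ET and LT (1.11 ± 0.13, adjusted p = 1.4e-05, edgeR). Elovl1:Med8 was at 47.7 to 105 CPM in the warm and 142 to 213 in the cold (1.37 ± 0.15, adjusted p = 6.3e-06).

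The merged units that fell included 2 with known inhibitors or partners of the polymerase. Hexim1:Acbd4, with the gene of the protein that holds P-TEFb inactive, stood at 130, 134 and 141 CPM in SA, 92.1, 129 and 114 in IBA, 84.2, 86.8 and 47.1 in Ent, 43.1, 41.8 and 41.3 in ET, and 36.4 and 39.0 in LT. Each cold library was below each of the others, and the unit fell by 1.62 on the log2 scale (SE 0.16, adjusted p = 2.7e-06, edgeR). Paf1 merged with a tRNA gene had the largest change, from 106 to 164 CPM in SA and IBA and 52.5 to 97.1 in Ent to 18.0 to 25.5 in ET and LT (-2.52 ± 0.20, adjusted p = 5.7e-07), and was the 1 unit of the 28 that edgeR called between ET and Ent (-1.92, adjusted p = 0.00048). On the other strand it spans the whole of Med29:Zfp36, which covers 69.1% of it and was lower too (-1.55 ± 0.20, adjusted p = 2.1e-05), so 2 of the 4 lower calls lie on the same ground. Cdk9:Fpgs, with the kinase of P-TEFb, overlapped between the groups at 285 to 498 and 251 to 390 CPM (-0.36 ± 0.19, adjusted p = 0.12), and 33.4% of it overlaps Eng on the other strand, which was lower in the cold (-0.96 ± 0.15, adjusted p = 0.00014). The groups also overlapped for Cdk7:Mrps36, at 65.6 to 97.6 and 76.5 to 113 CPM (0.11, adjusted p = 0.40).

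**Figure D5:**
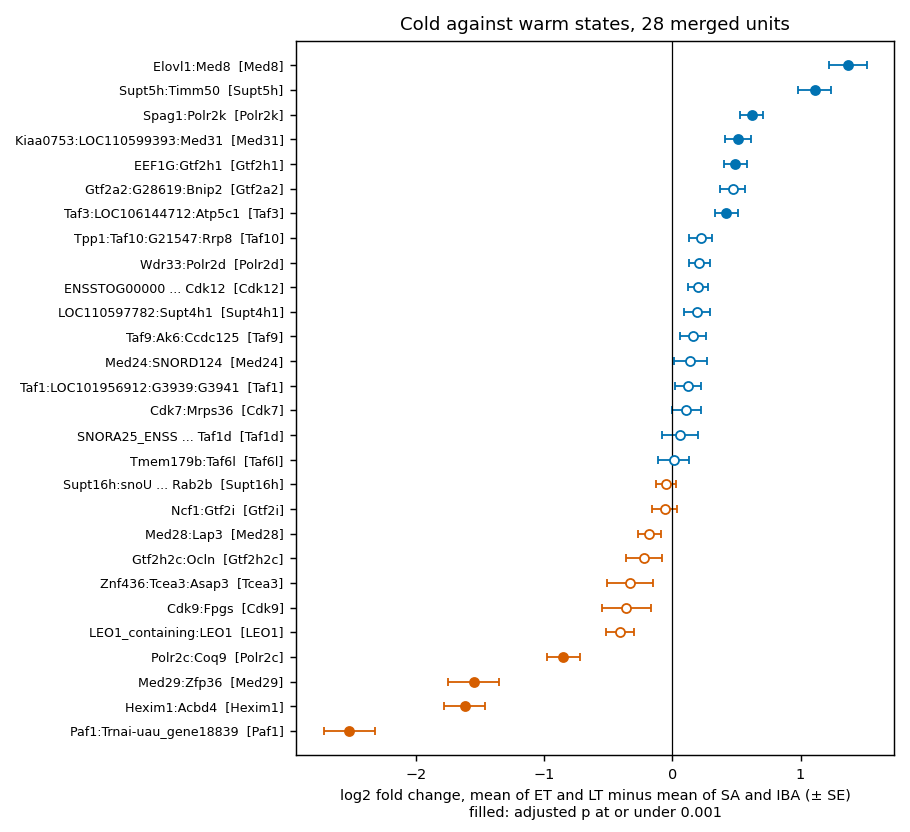
Log2 fold change between cold and warm states (± SE, edgeR) for the 28 merged units that hold a member, whose name is in brackets. Filled points passed an adjusted p of 0.001: 6 units on the right (those of Med8, Supt5h, Polr2k, Med31, Gtf2h1 and Taf3), and Polr2c, Med29, Hexim1 and Paf1 on the left.

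Of 25 transcription genes outside the name rule with a unit of their own, 7 passed the 5-state test (28%, against 26.4% of all single-gene units) and 12 the cold-to-warm contrast (48.0%, against 37.0%), 10 higher and 2 lower, with a median log2 fold change of 0.24. Wdr61, a PAF complex partner, was at 15.5 to 26.1 CPM in the warm and 44.0 to 58.0 in the cold (1.39 ± 0.13, adjusted p = 2.2e-06, edgeR), and the coactivator gene Sub1 at 20 to 29.4 and 47.6 to 92.3 CPM (1.62 ± 0.17, adjusted p = 4.3e-06). Brf1, a subunit of the Pol III factor TFIIIB, rose by 0.90 ± 0.12 (adjusted p = 3e-05), the cyclin gene Ccnl1 by 1.02 ± 0.11 (5.4e-06) and Rprd1a, which encodes a CTD-binding protein, by 0.59 ± 0.10 (0.00016). For Rprd1a the warm states differed, at 73.7 to 81.9 CPM in SA and 105 to 116 in IBA, against 127 to 162 in the cold. Its change in LT against IBA was 0.29 ± 0.14 (adjusted p = 0.10, edgeR). Ercc6, whose product acts at stalled polymerases, was at 58.7 to 94.1 CPM in the warm and 25.8 to 35.8 in the cold (-1.23 ± 0.14, adjusted p = 7.8e-06).

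Cdk19 and Cdk8 encode the alternative kinases of the Mediator kinase module. Cdk19 was at 131 to 247 CPM in the warm and 62.3 to 109 in the cold libraries without overlap (-1.40 ± 0.17, adjusted p = 1.7e-05, edgeR), and Cdk8 was at 144 to 201 and 109 to 193 CPM (-0.31 ± 0.15, adjusted p = 0.09); the difference between these changes was not tested. Among 5 subunit genes of RNA polymerases I and III, 1 passed the 5-state test, where 26.4% of all single-gene units passed. The cold-to-warm contrast called 2 of the 5, 1 in each direction, against 37.0% of all units. Polr3f passed both, rising from 27.6 to 38.0 CPM in the warm to 87.5 to 106 in the cold (1.54 ± 0.12, adjusted p = 5e-07), and Polr1a, the largest subunit of RNA polymerase I, was lower in the cold at 27.9 to 42.9 against 59.2 to 89.1 CPM (-0.91 ± 0.17, adjusted p = 0.00049).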

How the data were processed

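GRO-seq libraries of 14 livers were used, and 15 samples are labelled. Per the study's methods, the authors trimmed reads with cutadapt (minimum 32 nt), mapped them to the HiC_Itri_2 genome with BWA, extended gene ends from the reads with fstitch, merged overlapping genes, dropped the first 500 nt after each start and counted unique reads with featureCounts. What they deposited are raw counts without normalization, beside each unit's length in nucleotides. Versions, except as given below, and the strand setting are not given in the sources used here.

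Counts were TMM-normalized and fitted in edgeR 4.0.16 (R 4.3.3, glmQLFit) in 1 model of the 5 states over all 6324 units and 14 libraries, with no covariate as in the study. Adjustment was by Benjamini-Hochberg across the whole table (threshold 0.001), and calls were read over the 4705 single-gene units. The states were compared together, cold against warm, and in the 5 sequential pairs. CPM are counts scaled by the TMM library size, and CPM per kb divides them by unit length. Replicates are different animals. The steps were tested on simulated data.

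The members and gene lists were chosen with earlier results of these data known. Genes named with values in every library are those past 0.001 in the 5-state test, the member with the smallest p of each role and fixed landmarks (Polr2a, Ccnt1), 12 in all. Taf8, Nelfa and Med14, called in the cold-to-warm contrast, were added after their values were seen, and other members are given by role. Other transcription genes are named if past 0.001 in the 5-state test, up to 8, and Cdk8 and Polr1a were added after seeing their values. RefSeq symbols matched 34 of 36 members. No sequence of the files' genome build was used here.

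Other settings tried were limma-voom (limma 3.58.1), DESeq2 1.42.0, DESeq2 size factors and upper-quartile factors in edgeR, uniquely mapped reads (the study's library table) as library size, at least 10 counts in every library, single-gene units alone, a threshold of 0.05, season as a covariate, a block for replicate number, merged units counted too, and each library left out. Total counts as library size and adjusted deviances were added after seeing the data. Figures used matplotlib 3.10.9.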

Additional observations from a re-analysis of the deposited data

How the results depend on the processing

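Under the alternatives, DESeq2 called more members than edgeR: 17 against 5 in the 5-state test, 19 against 11 in the cold-to-warm contrast, 9 against 1 in LT against IBA, 3 against 0 in ET against Ent, 1 against 0 in Ent against IBA and 2 against 0 in LT against ET. A threshold of 0.05 gave 21, 20, 16, 6, 3 and 1 in the same order. The 5-state count was 9 with uniquely mapped reads as library size (28.6% of all single-gene units), 10 of 64 with merged units counted too and 0 with season as a covariate (7.33%). LT against IBA gave 5 members with uniquely mapped reads, 3 with total counts, 2 with DESeq2's size factors, 2 with single-gene units alone, and 0 with limma-voom, upper-quartile factors or season, where 16.4 to 18.7% of all units were called, but 5.78% with season. With each library left out in turn, the counts ranged from 3 to 5 in the 5-state test, from 7 to 12 in the cold-to-warm contrast and from 0 to 3 in LT against IBA, and were 0 in the other pairs; without an LT library, the LT library left is assumed to vary like the other groups. IBA against SA gave 0 under every alternative. The shares of all single-gene units moved with the library left out as well. Without 1 SA, IBA, Ent or ET library, 17.8 to 26.1% of all units passed the 5-state test. In the same fits 31.1 to 37.2% passed the cold-to-warm contrast and 9.54 to 19.7% LT against IBA. Both of these shares were lower in the fits without an LT library.

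With replicate number as a block, 4 members passed the 5-state test (Nelfe was lost) and 8 the cold-to-warm contrast (19.3 and 32.5% of all units). In LT against IBA 0 passed (12.5% of all units), and the value of Ctr9 was 0.81 (adjusted p = 0.003, edgeR). The numbers did not pair the samples: of 26 pairs with the same number, 6 had a correlation of deviations over 0.1, and 3 of 14 libraries correlated best with their own number.

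Uniquely mapped reads as library size raised every median over a role in the cold-to-warm contrast: P-TEFb cyclins from 0.63 to 0.85, general initiation factors from 0.55 to 0.78, the PAF complex from 0.40 to 0.63, pausing and elongation factors from 0.25 to 0.48, Mediator from 0.08 to 0.31, its kinase module from 0.01 to 0.24, polymerase subunits from 0.01 to 0.23, TAFs from -0.09 to 0.14, the pair with another role from -0.08 to 0.15 and all members from 0.15 to 0.37. Total counts gave 0.74 for the cyclins, 0.20 for Mediator, 0.13 for its kinase module, 0.12 for the polymerase subunits and 0.26 for all members. The values of the 12 named genes in the cold-to-warm contrast and LT against IBA were compared with the main fit. Of these, 543 kept direction and stayed called or uncalled, 36 lost the call, 27 gained it and 6 changed sign. Genes uncalled in both fits are among the 543, so that number does not measure how well calls held. In LT against IBA, Ctr9 kept its call in 11 alternatives and lost it in 15. The changes of sign were Med13 to 0.07 with uniquely mapped reads, and 5 for Polr2a, among them -0.002 in limma-voom. As libraries were left out, Polr2a ranged from -0.11 to 0.10 around its main value of 0.01, so some of these fits kept the sign. The causes were not tested.

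A fit with season could not be made for the cold-to-warm contrast, ET against Ent or LT against ET, since all ET animals come from 1 season. With 2 or 3 libraries a state, p-values rest on a spread that was estimated over all states from few animals.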
